A study of Mus musculus with 16 samples.

Results

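The dorsal raphe nucleus (DRN) of mice with a passive coping strategy (PS) was compared with that of unstressed controls, both 6 h after a saline injection. The comparison rested on 5 of the 16 DRN libraries, 2 from PS saline and 3 from control saline mice, chosen by their labels, and covered all 14504 genes listed. All mice were C57BL/6 males aged 10 to 12 weeks. PS mice came from a cohort defeated socially for 30 days and were classed as passive by clustering their behavior during non-aggressive contact, so the class was not set by any value reported here. Controls were unstressed and had been housed alone for 5 days. Saline was given 24 h after the last defeat, and polyA RNA was taken from punches of cryosections, so each library pools every cell type of the punch. Further libraries of these groups were not analysed here. The 5 libraries are called by group and mouse number, control-102, control-104 and control-114 and PS-62 and PS-68. Other groups were used only beside them: 3 PS and 3 control libraries taken 6 h after an injection of dexamethasone (DEX), a glucocorticoid receptor agonist, at 2 mg/kg, and 3 saline libraries of stressed mice with an active coping strategy (AS).

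The DRN holds most of the serotonin neurons that project to the forebrain, intermingled with dopamine, GABA, glutamate and peptide neurons and with glia. Stress reaches it along several routes. Corticosterone acts through the glucocorticoid and mineralocorticoid receptors, which switch target genes on and off, and neuronal activity induces within minutes a set of immediate early genes whose products, among them the Fos and Jun proteins of the AP-1 transcription factor, carry the signal to later genes.

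The 5 libraries held between 42829818 and 47584660 reads in the listed genes, so depth differed little between them. The labelled tissue was checked by Tph2, the rate-limiting enzyme of serotonin synthesis, which stood at 107794, 148070.2 and 123390.1 normalized counts in control-102, control-104 and control-114 and at 127928 and 120602 in PS-62 and PS-68. The study had excluded DRN libraries whose Tph2 fell below an outlier threshold, and those removed came from PS DEX and AS DEX mice. The libraries kept, saline ones included, had all passed that threshold, so this gene could not differ freely in any group. Libraries did not stand equally close to one another. PS-68 was low in peptide and dopamine neuron genes and high in cholinergic genes, and control-102 lay at the level of the PS libraries in the ribosomal genes and in the longest transcripts, as the values below show.

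With limma over all 16 libraries, no gene differed between PS saline and control saline at an adjusted p under 0.1 (0 of 14504, 0%). edgeR on the reads recovered from the deposited values also called 0 (0%), and DESeq2 called 4 of 14502 (0.0276%), Junb and the long non-coding RNAs Gm26582, Gm26723 and Gm26762, each lower in PS. At an unadjusted p under 0.05 there were 675 genes higher in PS (4.65%) and 437 lower (3.01%). Both PS libraries lay above all 3 controls in 2073 genes (14.3%) and below them in 2061 (14.2%). These shares are the background against which the gene groups below are read. Without control-102 the adjusted test called 15 genes, 4 higher and 11 lower, and 12 of the 15 were not protein coding. Without PS-62 it called 8 genes, all lower, and without any other of the 5 libraries it called 0.

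Under saline the difference moved with transcript length. The median log2 difference (PS minus control, on the log2(normalized count + 1) scale) was -0.13 in the quintile of genes with the shortest transcripts (up to 1515 bases), then -0.12, -0.04 and 0.03, and 0.23 in the longest quintile (5107 bases or more). Both PS libraries were above all controls in 36.5% of the longest quintile and in 9.49% of the shortest. The 5 quintiles of GC content had medians between -0.01 and 0.04. Within the longest quintile the median deviation from the control mean was 0.21 and 0.24 in the PS libraries and 0.16, -0.17 and 0.02 in control-102, control-104 and control-114, so the control libraries differed among themselves by more than control-102 differed from PS. In the DEX libraries, which share none with the saline comparison, the medians of the length quintiles lay between -0.02 and 0.02. Lists of long genes are therefore also given with a trend on transcript length and GC content removed from every library, which put the median of all genes at -0.05.

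Junb and Fos, which together form AP-1 dimers, were both lower in PS. Junb (ENSMUSG00000052837.6, chromosome 8, 84974484 to 84978718, minus strand on GRCm38, protein coding), a subunit induced by activity, stood at 412, 493 and 595 normalized counts in control-102, control-104 and control-114 and at 244 and 214 in PS-62 and PS-68. The highest PS library lay well below the lowest control. The log2 difference was -1.11 (SE 0.25), with a Benjamini-Hochberg adjusted p of 0.571 by limma and 0.096 by DESeq2, and the adjusted p ran up to 0.88 over 18 alternatives. Its partner Fos (ENSMUSG00000021250.13, chromosome 12, 85473890 to 85477273, plus strand on GRCm38) stood at 289, 359 and 307 in the controls and 159 and 152 in PS, again without overlap, a log2 difference of -1.02 (SE 0.31, limma adjusted p 0.571, between 0.213 and 0.88 over the alternatives). In bulk tissue fewer cells of a type and less RNA per cell cannot be told apart, here or in any result that follows. Leaving out any of the 5 libraries gave differences from -1.24 to -0.98 for Junb and from -1.09 to -0.93 for Fos. With the length and GC trend removed they were -1.04 and -0.94.

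Jun and Jund, the other AP-1 subunits tested, overlapped between the groups. Jun, the partner of Fos in the classical AP-1 dimer, stood at 1363, 1154 and 1226 in controls and 1335 and 1318 in PS, a log2 difference of 0.09 (SE 0.12). Jund, a subunit that is abundant without stimulation, stood at 6591, 9785 and 7372 in controls and 6981 and 5432 in PS (-0.34, SE 0.17). The windows around the RefSeq starts of Junb, Fos and Jun (GRCm38.p6, 250 bases before the start and 30 after, written along the gene) are shown because the first pair was low in PS together and Jun was not. Capitals mark TGACG, the core of the cyclic AMP response element, searched on both strands, and TATAAA, the TATA box, searched on the gene's own strand.
Junb, chr8:84978719-84978998, minus strand: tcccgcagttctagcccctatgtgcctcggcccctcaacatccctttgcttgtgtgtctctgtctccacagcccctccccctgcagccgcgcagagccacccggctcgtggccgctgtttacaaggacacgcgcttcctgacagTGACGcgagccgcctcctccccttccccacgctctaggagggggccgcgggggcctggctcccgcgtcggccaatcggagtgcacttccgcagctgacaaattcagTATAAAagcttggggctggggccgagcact
Fos, chr12:85473640-85473919, plus strand: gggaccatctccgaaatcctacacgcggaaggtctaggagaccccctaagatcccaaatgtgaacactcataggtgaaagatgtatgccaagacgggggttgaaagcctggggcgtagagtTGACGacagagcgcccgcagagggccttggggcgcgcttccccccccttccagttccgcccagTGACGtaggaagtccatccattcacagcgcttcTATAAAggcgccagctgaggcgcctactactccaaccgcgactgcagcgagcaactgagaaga
Jun, chr4:95052193-95052472, minus strand: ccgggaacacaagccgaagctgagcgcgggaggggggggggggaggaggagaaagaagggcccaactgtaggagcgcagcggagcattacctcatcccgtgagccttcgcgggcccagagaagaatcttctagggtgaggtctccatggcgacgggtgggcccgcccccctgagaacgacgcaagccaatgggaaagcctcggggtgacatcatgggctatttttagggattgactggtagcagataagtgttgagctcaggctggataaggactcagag
Counted from the RefSeq start, TGACG began at -106 in Junb and at -129 and -66 in Fos, and TATAAA began at 1 in Junb and at -33 in Fos. Neither motif was found in the window of Jun. The Junb window lies wholly upstream of the Junb gene as placed above, whose annotated start is further downstream. In Fos the RefSeq and annotated starts coincide, so positions in Junb and Fos are not directly comparable. Of all 32851 promoter windows of this length 19.9% held TGACG, 3.43% held it at 2 or more places, and 8.02% held TATAAA. Such a match describes the letters and not a bound site. The windows were picked by the values of their genes, and whether the motifs had a part in the difference was not tested. Of the 33 immediate early genes tested 23 had a window, and 13 of these held TGACG.

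**Figure D1:**
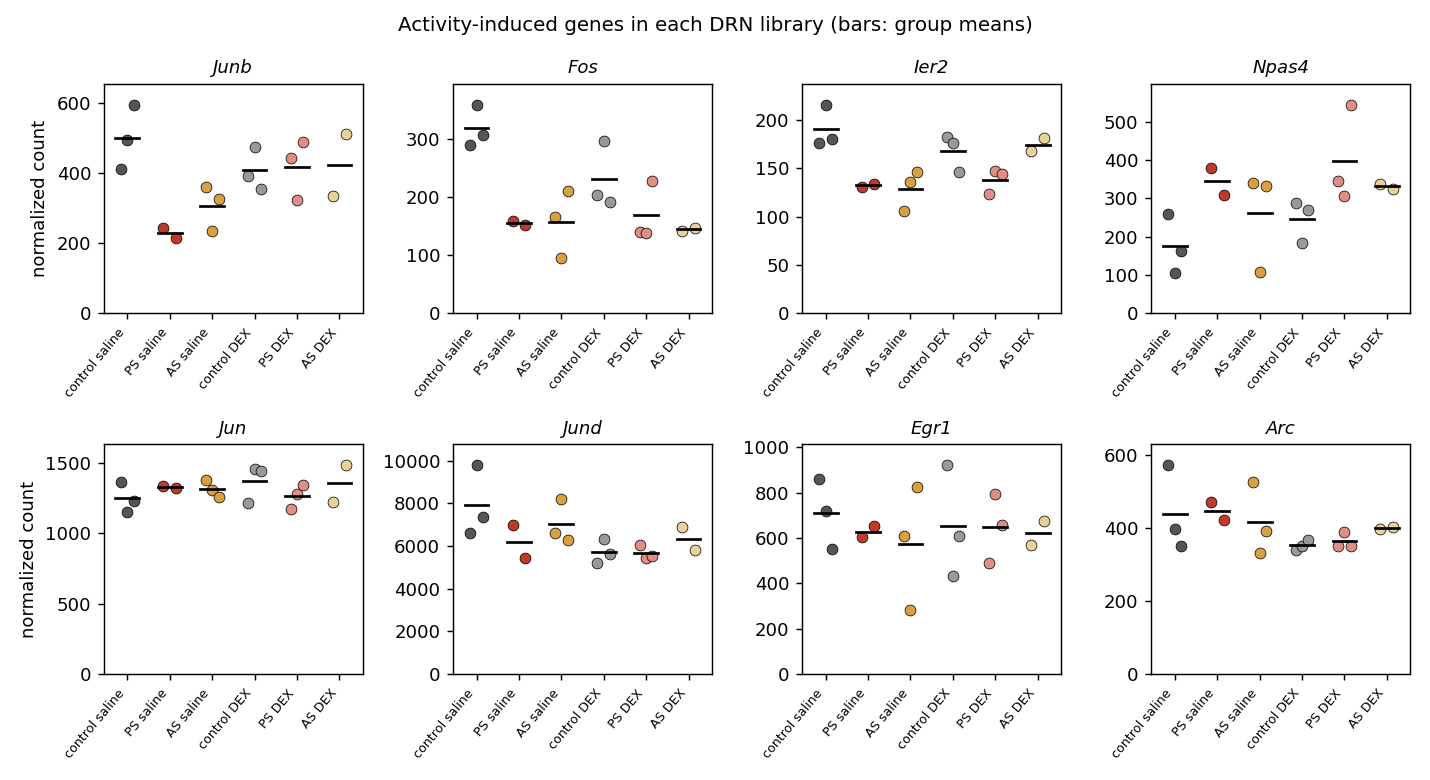
Normalized counts of 8 activity-induced genes in each of the 16 DRN libraries, 1 panel per gene, with points for libraries and bars for group means. Junb, Fos and Ier2 lay lower in both PS saline libraries than in any control saline library, Npas4 lay higher, and Jun, Jund, Egr1 and Arc overlapped.

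Across all 33 immediate early genes tested, 23 were lower and 10 higher in PS saline, with a median log2 difference of -0.15 against 0.01 over all genes. At an unadjusted p under 0.05 there were 6 lower and 1 higher, against 3.01% and 4.65% of all genes. Both PS libraries lay below every control in 8 (24.2%, against 14.2% of all genes). The median was -0.16 with the length and GC trend removed, against -0.05 over all genes. Ier2, a small nuclear protein induced with Fos, stood at 176, 216 and 181 in controls and 130.5 and 134 in PS, a log2 difference of -0.52 (SE 0.20). Bdnf, the neurotrophin released by active neurons, stood at 769.8, 648 and 1357 in controls and 612 and 515 in PS (-0.64, SE 0.29), and its groups did not overlap. Vgf, the precursor of secreted peptides that Bdnf induces, stood at 18121, 15933 and 19426 in controls and 15047 and 12251 in PS (-0.39, SE 0.15), also without overlap.

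Npas4, a transcription factor that calcium entry switches on in neurons, was higher in PS at 381 and 309 against 259, 106 and 164 in controls, without overlap and with a log2 difference of 1.05 (SE 0.46). Egr1, Nr4a1 and Arc, which respond to the same stimuli, had log2 differences of -0.16, -0.15 and 0.05, each smaller than its SE. Of the 9 feedback genes that end the response 8 were lower and 1 higher, with a median of -0.10, and Dusp1, the phosphatase that shuts off MAP kinases, stood at 577, 504 and 446 in controls and 461 and 430.3 in PS. Effectors at the synapse and outside the cell were lower in 4 of 9, with a median of 0.05. The median of the whole list was -0.08 without PS-68 and -0.09 without control-102, and without each of the other libraries it lay between -0.21 and -0.12.

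More of the genes that glucocorticoids induce stood higher than lower in PS saline, in animals that had received no DEX. Of the 28 targets tested 18 were higher and 10 lower, with a median log2 difference of 0.19 against 0.01 over all genes. At an unadjusted p under 0.05 there were 7 higher and 0 lower, which is 25% of the list against 4.65% of all genes, but none passed the adjustment over genes by limma, and the list was chosen with DEX results of this tissue known. The median was 0.21 with the length and GC trend removed and lay between 0.12 and 0.19 when any of the 5 libraries was left out. The 2 PS libraries had a median deviation of 0.19 and 0.12, and the controls lay between -0.02 and 0.03. The summed level of the list, of which Glul is the most abundant member, ran from 91909 to 96338 in controls and from 88392 to 92074 in PS, overlapping and not higher in PS.

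Pla2g3, a secreted phospholipase, stood at 234, 193 and 218 in controls and 292 and 343 in PS, without overlap, a log2 difference of 0.56 (SE 0.16). Zbtb16, a transcriptional repressor with zinc fingers, stood at 696, 584 and 989 in controls and 1088 and 1195 in PS (0.63, SE 0.20). The kinase Sgk1 stood at 1988, 2102 and 1978 in controls and 2840.4 and 2406 in PS (0.37, SE 0.15), while AS saline stood at 2188, 3127 and 2884. AS saline thus stood above the controls in Sgk1 as PS did. Per1, a clock gene that glucocorticoids also induce, stood at 1937, 1911 and 1732 in controls and 2770.3 and 2385 in PS (0.47, SE 0.19). Fkbp5, the chaperone that restrains the glucocorticoid receptor, stood at 1293, 1356 and 1241 in controls and 1519 and 1536 in PS (0.24, SE 0.11). Both PS libraries lay above every control in each of these 5 genes, and Hif3a and Mertk completed the count of 7 at an unadjusted p under 0.05. The saline levels were small beside those in the DEX libraries: Fkbp5 stood at 5701, 5771 and 6330.1 in control DEX and Zbtb16 at 3470.2, 3298 and 4540.3. The receptors themselves differed by less than 2 SE. The glucocorticoid receptor Nr3c1 stood at 5704, 6018 and 6181 in controls and 6672 and 6189 in PS (0.11, SE 0.13). Both PS libraries thus lay above every control, as in 14.3% of all genes, the lower of them only just. The mineralocorticoid receptor Nr3c2 stood at 1852, 1626 and 1323 in controls and 1913 and 1782 in PS (0.22, SE 0.15). Of the 12 genes of glucocorticoid and CRH signaling tested 8 were lower, with a median of -0.17.

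**Figure D2:**
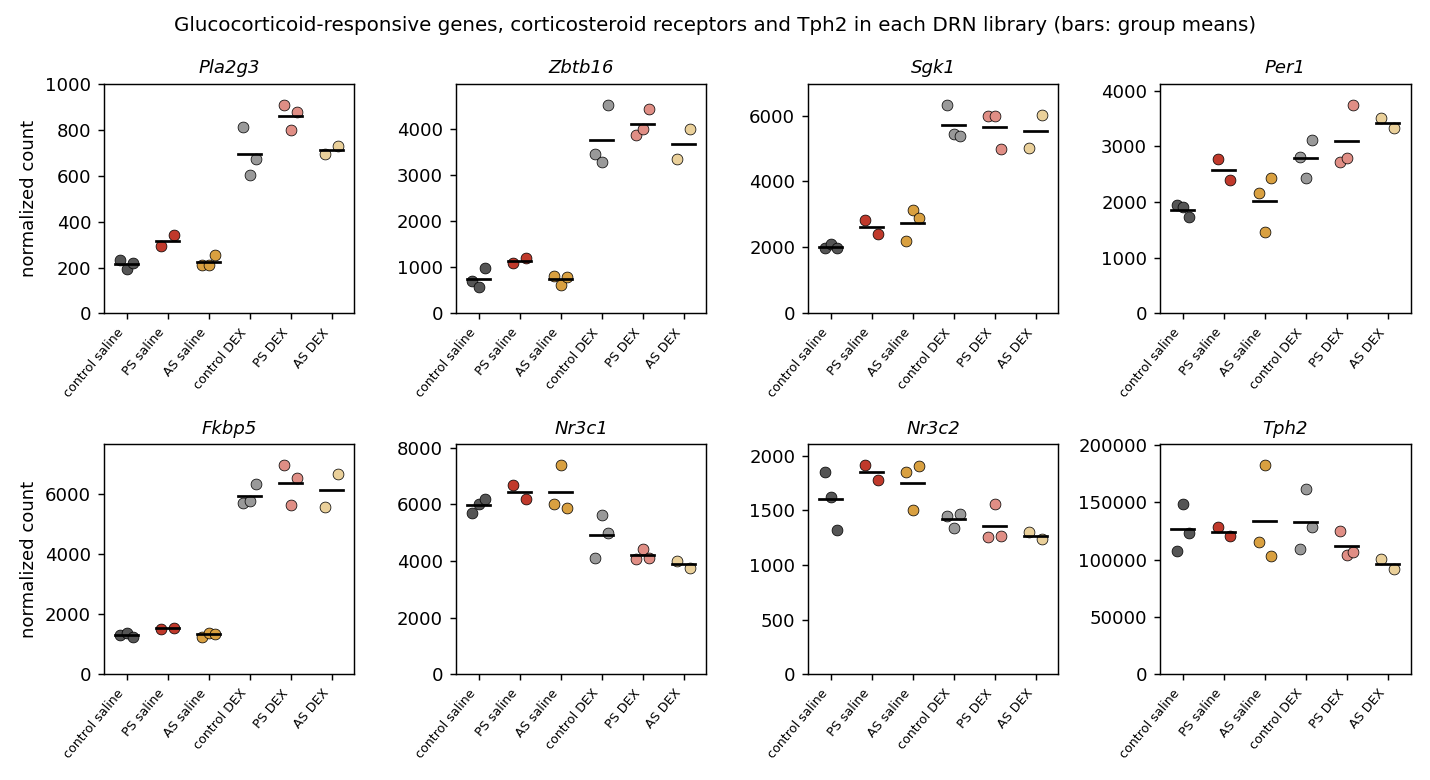
Normalized counts of 5 genes induced by glucocorticoids, the receptors Nr3c1 and Nr3c2, and Tph2 in each of the 16 DRN libraries, with points for libraries and bars for group means. The 5 target genes lay higher in both PS saline libraries than in every control saline library and, except for Per1, higher still in all DEX libraries, while Tph2 overlapped between PS and control.

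Tph2, Slc6a4 and Fev, which mark serotonin neurons, overlapped between the groups. Tph2, whose values are given above, had a log2 difference of -0.01 (SE 0.24). The transporter Slc6a4, which takes serotonin back up, stood at 89379.9, 129820.2 and 74627 in controls and 109527 and 89052 in PS (0.05, SE 0.21). Fev, the transcription factor that maintains the serotonin phenotype, stood at 5725, 9636 and 3483 in controls and 6631 and 4293 in PS. The autoreceptor Htr1a and the degrading enzyme Maoa had log2 differences of 0.01 (SE 0.12) and -0.02 (SE 0.14). The 14 serotonin neuron markers tested had a median of 0.02, 8 being higher and 6 lower. Both PS libraries lay below every control in 1 of them (7.14%, against 14.2% of all genes) and above in 0 (0%, against 14.3%). At an unadjusted p under 0.05 by limma 1 was higher and 1 lower, against 4.65% and 3.01% of all genes. Their summed level ran from 310761 to 416449 in controls and from 329321 to 377046 in PS.

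All 7 genes for serotonin synthesis and its cofactor were lower in PS, with a median of -0.15. That median was -0.0077 without PS-68, -0.03 without control-104, -0.32 without control-102 and -0.29 without PS-62. Qdpr, which recycles the cofactor tetrahydrobiopterin, stood at 11033, 13029 and 12913 in controls and 9035 and 10023 in PS (-0.37, SE 0.16). Aldh2, which oxidizes the aldehyde that Maoa makes, stood at 5239.7, 5632 and 5157 in controls and 4884 and 4323 in PS (-0.22, SE 0.10). Neither overlapped between the groups. Of the 10 serotonin receptors 9 were higher, with a median of 0.22, which was 0.04 without control-114. The inhibitory receptor Htr1d stood at 812, 783 and 600.2 in controls and 976 and 875 in PS (0.35, SE 0.14), without overlap. Htr7, the 1 receptor that was lower, stood at 1067, 986 and 1213 in controls and 945 and 779.6 in PS, a log2 difference of -0.34 (SE 0.20).

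Neuropeptide precursors had one of the lowest medians of all lists, -0.46 over 21 genes, of which 19 were lower and 7 reached an unadjusted p under 0.05, 33.3% against 3.01% of all genes. Among the members with a mean of at least 100 normalized counts the median of neuropeptides of the raphe was -0.73. Without PS-68 the median of all 21 was -0.27. PS-68 was far lower than PS-62 in most of the 7. Cck, the cholecystokinin precursor, stood at 711, 723 and 2091 in the controls, 694 in PS-62 and 44.3 in PS-68. Vip, made by a subset of raphe dopamine neurons, stood at 2389, 3893 and 12198 in the controls and 2899.8 and 203 in PS-62 and PS-68. Pdyn, the dynorphin precursor, stood at 2279, 2914 and 3349 in controls and 2527 and 787 in PS. In each of these genes PS-62 lay among or close to the controls and PS-68 far below them.

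The same held for Npy, Sst, Grp and Trh. The somatostatin precursor Sst, for example, stood at 5408, 6806 and 7494 in controls and 5382 and 1425 in PS. Without PS-68 the log2 difference of Cck went from -2.53 to -0.56, that of Vip from -2.65 to -0.74, that of Sst from -1.23 to -0.27 and that of Pdyn from -0.99 to -0.15. Without PS-62 Cck and Pdyn passed the adjusted test (limma adjusted p 0.0381 and 0.0486), PS-68 then being the only PS library and assumed to vary like the other groups. Penk and Nts, the precursors of enkephalin and neurotensin, were picked after their values were seen because they were lower in both PS libraries. Penk stood at 4402, 5294 and 4931 in controls and 3443 and 3620.1 in PS (-0.46, SE 0.23, or -0.50 without PS-68). Nts stood at 584, 501 and 516 in controls and 365 and 346 in PS (-0.58, SE 0.31, or -0.54 without PS-68).

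Markers of other neurons moved with that library. Th, the rate-limiting enzyme of dopamine synthesis, stood at 3194, 2903 and 4527 in controls and 3333 and 741 in PS-62 and PS-68. The dopamine transporter Slc6a3 stood at 773, 397 and 944 in controls and 663 and 215 in PS. All 9 dopamine neuron markers tested were lower in PS, with a median of -0.36, which was -0.06 without PS-68 and -0.87 without PS-62. Calb1, a calcium buffer of these and other neurons, stood at 3909, 4383 and 5917 in controls and 3893 and 2319 in PS (-0.63, SE 0.21). Otx2, a midbrain transcription factor, stood at 585, 654 and 1307 in controls and 701 and 91.9 in PS, and again only PS-68 stood apart. The summed level of the dopamine markers ran from 73833 to 101541 in controls and from 64644 to 87272 in PS, and none of them was at 0 in these libraries.

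Chat, Slc5a7 and Slc18a3, 3 of the 4 members tested of a list for motor and noradrenergic neurons, were highest in PS-68. Chat, which makes acetylcholine, stood at 306, 113 and 20.3 in controls, 163 in PS-62 and 2150 in PS-68. The choline transporter Slc5a7 stood at 869, 369.6 and 58.1 in controls and 393 and 4745 in PS, and the vesicular transporter Slc18a3 at 383, 91.6 and 16.6 in controls and 107 and 1366 in PS. Controls also differed widely among themselves in these genes. Slc17a8, a vesicular glutamate transporter that serotonin neurons carry, stood at 11201, 13698 and 5085 in controls and 12796 and 20800.3 in PS (0.83, SE 0.32), PS-62 lying among the controls. Prph, an intermediate filament and the other member tested, was lower in PS-68, at 2154 and 630.4 in PS and 1808, 2605 and 1923 in controls. No marker particular to noradrenergic neurons was among the 4. Chat, Slc5a7, Slc18a3 and Prph summed to between 2018 and 3366 in controls and to 2817 and 8890 in PS-62 and PS-68. Their part, and that of the dopamine markers, in the other differences between the groups was not tested.

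**Figure D3:**
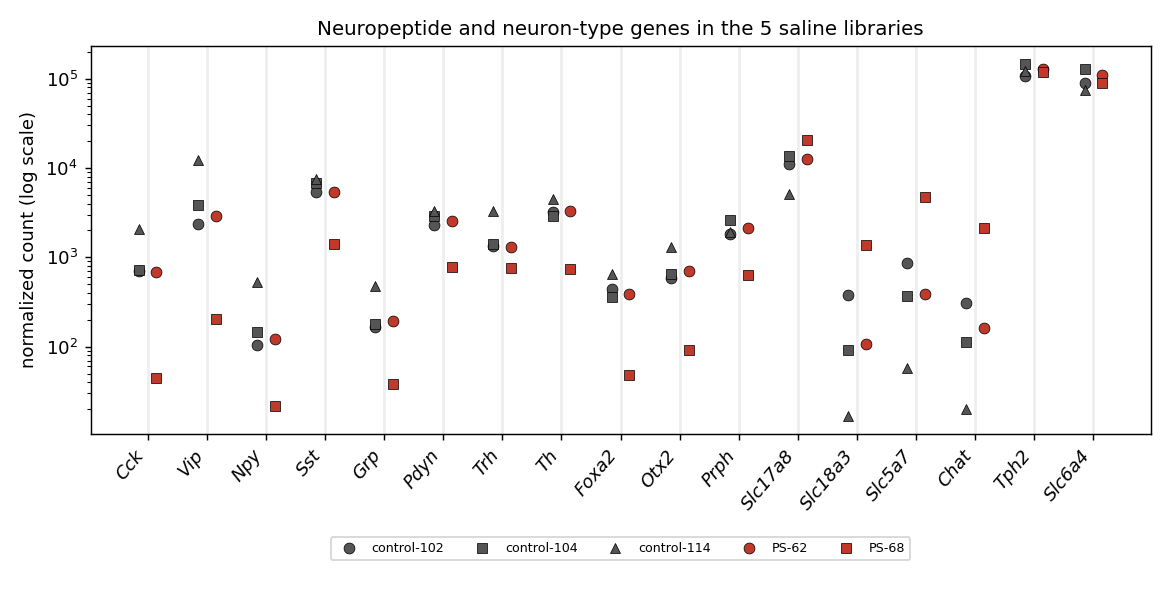
Normalized counts, on a log scale, of 17 genes of peptide, dopamine, cholinergic and serotonin neurons in the 3 control saline (grey) and 2 PS saline (red) libraries. PS-68 lay lowest from Cck to Prph and highest for Slc17a8, Slc18a3, Slc5a7 and Chat, while Tph2 and Slc6a4 overlapped.

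Genes for making proteins and energy stood lower in PS as whole families. Of the 75 cytosolic ribosomal protein genes 74 were lower, with a median log2 difference of -0.39, and 40 of them (53.3%, against 14.2% of all genes) had both PS libraries below every control. Only 1 reached an unadjusted p under 0.05: Rpl7a, at 9462, 14228 and 11803 in controls and 8245 and 7955 in PS (-0.53, SE 0.22). The low PS values of the family were matched in control-102. The median deviation was -0.34 and -0.42 in PS and -0.33, 0.16 and 0.15 in control-102, control-104 and control-114. Without control-102 the median difference was -0.55.

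Nuclear genes for mitochondria were low as well. Of the 77 mitochondrial ribosomal protein genes 76 were lower (median -0.26) and 48 (62.3%, against 14.2% of all genes) had both PS libraries below every control. Mrpl2, of the large subunit, stood at 1394, 2161 and 1449 in controls and 1217 and 1086 in PS (-0.51, SE 0.17). Of the 79 nuclear genes of oxidative phosphorylation 76 were lower (median -0.27). Both PS libraries lay below every control in 45 (57.0%, against 14.2% of all genes). At an unadjusted p under 0.05 there were 5 lower, against 3.01% of all genes. Cox6a1, of complex IV, stood at 5786, 7349 and 6122 in controls and 4408 and 4678 in PS (-0.49, SE 0.20). Ndufa12, of complex I, stood at 3206, 5050.2 and 4859 in controls and 2881 and 3132 in PS (-0.51, SE 0.22). All respiratory complexes had negative medians, from -0.30 for complex I to -0.21 for the 4 genes of complex II. The 13 protein genes of the mitochondrial genome had 6 higher, 7 lower and a median of -0.04, or -0.21 with the length and GC trend removed, and leaving out 1 library gave from -0.37 to 0.17.

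Protein turnover and folding genes were also low. The proteasome had 35 of 36 genes lower (median -0.26), and 14 (38.9%, against 14.2% of all genes) had both PS libraries below every control. An example was Psmb7 at 5727, 7917 and 8625 in controls and 5641 and 5562 in PS. Heat shock and unfolded protein response genes had 25 of 31 lower (median -0.17). Ddit3, the CHOP transcription factor of endoplasmic reticulum stress, stood at 524, 739 and 557 in controls and 453 and 454 in PS (-0.40, SE 0.15). These lists consist of short transcripts, with a median length of 1106 bases for the cytosolic ribosome and 1046 for oxidative phosphorylation against 3135 over all genes. With the length and GC trend removed their medians were -0.29 for the cytosolic ribosome, -0.21 for the mitochondrial ribosome, -0.20 for oxidative phosphorylation and -0.19 for the proteasome, against -0.05 over all genes. Both PS libraries lay below every control in 20.7% of the shortest quintile of all genes and in 24.6% of the next.

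**Figure D4:**
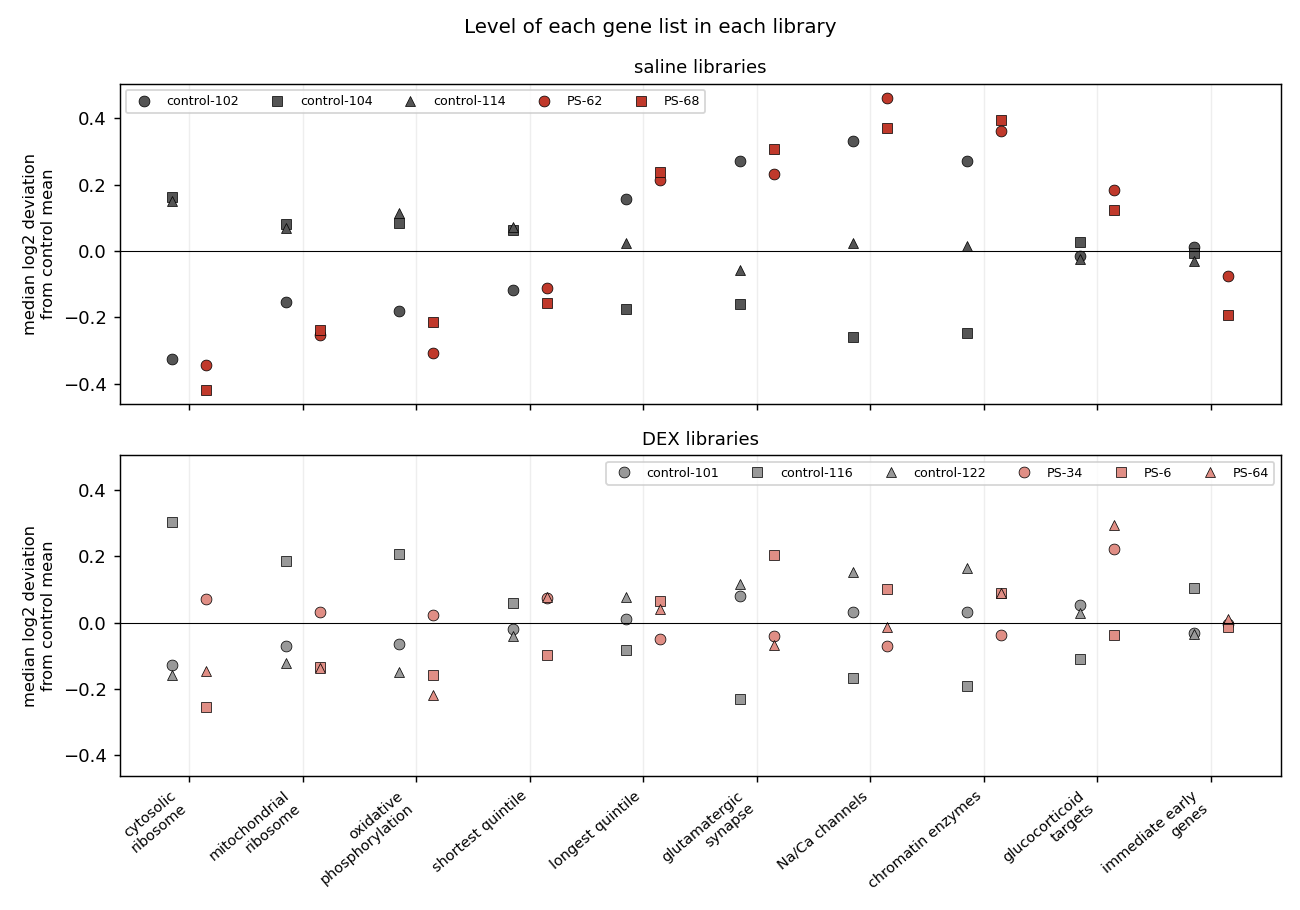
Median log2 deviation of each gene list from the mean of the 3 control libraries of the same treatment, for each PS and control library under saline (top) and DEX (bottom). Control-102 lay beside the 2 PS saline libraries in the ribosomal, respiratory, length and synapse lists, but with the other controls in the glucocorticoid targets and immediate early genes.

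Genes for synapses, channels and chromatin stood higher in PS, and these have long transcripts. Of the 60 glutamatergic synapse genes 51 were higher (median 0.27), and 7 reached an unadjusted p under 0.05, against 4.65% of all genes. Both PS libraries lay above every control in 17 (28.3%, against 14.3% of all genes). The median transcript length of the list was 5696.5 bases, and in the longest quintile of all genes that share was 36.5%. Grin2a, an NMDA receptor subunit, stood at 3027, 1379 and 2226 in controls and 3048 and 4101 in PS (0.75, SE 0.27). Bsn, a giant scaffold of the presynaptic active zone, stood at 11228, 3859 and 4851 in controls and 14016 and 13579 in PS (1.21, SE 0.45). Pclo, another scaffold of that zone, stood at 18542, 6969.5 and 13109 in controls and 21916 and 21182 in PS (0.85, SE 0.33). In all 3 genes control-102 was the control nearest to PS. Without control-102 the median of the list was 0.45. With the length and GC trend removed it was 0.03, against -0.05 over all genes, which is also the reference for the lists that follow.

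Voltage-gated sodium and calcium channels had a median of 0.33, with 20 of 22 higher. All 11 calcium channel genes were higher (median 0.62), among them Cacna1e, the R-type pore, at 16087, 7010.2 and 12913 in controls and 21418 and 18969 in PS (0.83, SE 0.32). Cacna1a, the P/Q-type pore, stood at 11093, 6312 and 5741 in controls and 13748 and 12119.9 in PS (0.81, SE 0.37). The median of the calcium channels was 0.37 without control-104 and 0.20 with the trend removed. With the trend removed the whole list of 22 had a median of 0.04 and the 11 sodium channels one of -0.03.

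Potassium channels had 45 of 58 higher (median 0.17, or 0.08 with the trend removed), and 9 reached an unadjusted p under 0.05, against 4.65% of all genes. The median was 0.09 without PS-68, 0.10 without control-114, 0.26 without PS-62 and 0.29 without control-102. Kcnj6, the GIRK2 channel through which serotonin autoreceptors silence the neuron, stood at 1046, 579 and 674 in controls and 1466 and 1173 in PS, without overlap. Its log2 difference of 0.82 (SE 0.28) was 0.80 with the trend removed. Kcnn3, a calcium-activated channel of the afterhyperpolarization, stood at 3714, 2467 and 2843 in controls and 5343 and 3783 in PS (0.60, SE 0.23). Kcnq3, a subunit of the M current, stood at 5547, 2218 and 1905 in controls and 5277 and 8363 in PS (1.21, SE 0.43), with PS-62 just below control-102.

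Histone-modifying enzymes and chromatin remodelers had the highest median of the lists of 10 or more genes, 0.37, with 38 of 43 higher. Both PS libraries were above every control in 24 of them (55.8%, against 14.3% of all genes and 36.5% of the longest quintile). The median transcript length of the list was 7581 bases. At an unadjusted p under 0.05 there were 15 higher, against 4.65% of all genes. Setd2, a histone methyltransferase of transcribed genes, stood at 3396, 2598 and 2899.8 in controls and 3912 and 3743 in PS (0.38, SE 0.12). The acetyltransferase Ep300 stood at 3696, 2133 and 2425 in controls and 4285 and 4265 in PS (0.68, SE 0.27). With the trend removed the median of the list was 0.05 and the difference of Setd2 was 0.09. RNA silencing genes had 23 of 30 higher (median 0.17, 0.08 without control-104 and 0.01 with the trend removed). Dicer1, which cuts microRNA precursors, stood at 4350.1, 2772 and 3291 in controls and 5165 and 4984 in PS (0.57, SE 0.22). Tnrc6c, a GW182 partner of the Argonautes, stood at 4752, 2407 and 2815 in controls and 5704 and 5163 in PS (0.77, SE 0.33). Lsm14a, a component of processing bodies, was lower at 2365 and 2522 against 2726, 2891 and 3134 (-0.25, SE 0.08).

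Axon guidance genes had 52 of 61 higher (median 0.20, 0.31 without control-102 and 0.03 with the trend removed). Slit2 (ENSMUSG00000031558.15, chromosome 5, 47983138 to 48307733, plus strand on GRCm38), a repellent ligand of the Robo receptors, stood at 2797, 1896 and 2127 in controls and 3078 and 4439.7 in PS (0.72, SE 0.19), without overlap. The netrin receptor Dcc stood at 2108, 1199 and 1739.9 in controls and 2343 and 2704 in PS (0.62, SE 0.24). Of the 47 protocadherins 41 were higher (median 0.23, or 0.10 with the trend removed). Pcdh15, a cadherin known from hair cells, stood at 2349, 928 and 1459.6 in controls and 2331 and 3149.7 in PS (0.88, SE 0.28), overlapping through control-102. Pcdhga8, of the gamma cluster, stood at 253, 232 and 161 in controls and 383 and 393 in PS (0.87, SE 0.29) and kept 0.75 with the trend removed. Pcdhga8 shares its constant exons with the other genes of its cluster, so its count is uncertain.

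The glial marker lists had medians from -0.17 to 0.07. Of the 41 myelin and oligodendrocyte genes 33 were lower (median -0.17), but the libraries were spread, from -0.40 in PS-62 to 0.07 in PS-68 and from -0.14 to 0.25 in controls. The median was 0.07 without PS-62, -0.40 without PS-68 and -0.09 without control-102. Nkx6-2, a transcription factor of myelinating oligodendrocytes, stood at 1480.1, 1847 and 1666 in controls and 1154 and 1118 in PS (-0.54, SE 0.14), without overlap. The myelin proteins Mbp and Mog overlapped, with log2 differences of -0.27 and -0.15. Astrocyte and microglia markers had medians of -0.10 over 30 genes and -0.09 over 23, and leaving out 1 library gave from -0.12 to -0.05 and from -0.13 to -0.05. The Notch target Hes5 stood at 576, 907 and 846 in controls and 536 and 485 in PS (-0.58, SE 0.24). C1ql1, a secreted protein of oligodendrocyte precursors, stood at 699, 781 and 699 in controls and 455 and 627 in PS (-0.44, SE 0.18). Its list of 12 precursor markers had 6 higher and 6 lower, with a median of 0.07, or -0.11 with the trend removed.

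All 4 globin genes tested (100%, against 14.2% of all genes) were lower in both PS libraries than in every control. Their median was -0.87 and none reached an unadjusted p under 0.05. Hba-a1 stood at 363, 317 and 877 in controls and 184 and 216 in PS, and reads of near-identical globin copies may be split between them. Their summed level ran from 989 to 2034 in controls and from 645 to 684 in PS. Of the 24 endothelial markers 18 were higher and 6 lower (median 0.12). Both PS libraries lay below every control in 2 (8.33%, against 14.2% of all genes) and above in 0 (0%, against 14.3%). Their summed level ran from 40320 to 45385 in PS and from 44987 to 50043 in controls. Among them was Vwf at 741, 205 and 350.4 in controls and 657 and 828 in PS (0.97, SE 0.41). The median was -0.02 without PS-68, 0.03 without control-104 and 0.0031 without control-114. Ependymal cilia genes had a median of 0.24 that was 0.07 with the trend removed and ran from -0.34 without PS-62 to 0.90 without PS-68. Ttr, the main product of the choroid plexus, stood at 7.93, 66.2 and 68.2 in controls and 21.4 and 0 in PS, low throughout. Antigen presentation genes were lower in 8 of 8 (median -0.24, or -0.11 without PS-68 and -0.41 without PS-62), among them H2-D1 at 3163, 3576 and 3556 in controls and 3036 and 2342 in PS (-0.36, SE 0.13). The 14 interferon-induced genes of the same list had 6 higher and 8 lower, with a median of -0.05. All 22 genes of the list had a median of -0.12, or -0.0030 without PS-68.

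The remaining lists had these median log2 differences. Cholesterol synthesis stood at -0.06 over 23 genes, GABA neuron markers at -0.08 over 13, serotonin neuron identity factors at -0.07 over 12 and choroid plexus markers at -0.05 over 7. Glutamate neuron markers stood at 0.11 over 5, clock genes at 0.12 over 19, mural cell and fibroblast markers at 0.16 over 13 and neurotrophins with their receptors at 0.19 over 11. When 1 library was left out these medians ran from -0.41 to -0.13 for choroid plexus markers, from -0.36 to 0.13 for serotonin neuron identity factors, from -0.29 to 0.26 for glutamate neuron markers and from -0.17 to 0.09 for GABA neuron markers, and that of the neurotrophins was 0.01 without control-114. With the length and GC trend removed choroid plexus markers stood at -0.40, mural cell and fibroblast markers at 0.02, and the neurotrophins at -0.0047 and the clock genes at 0.00061, both against -0.05 over all genes.

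Outside the lists, the following genes were higher in PS. The adhesion receptor Adgrl2 stood at 3881, 3179 and 2863 in controls and 4624 and 5698 in PS (0.65, SE 0.16). Klf13, a zinc finger transcription factor, stood at 3867, 2751 and 3028 in controls and 4293 and 4585 in PS (0.48, SE 0.13). Xdh, an enzyme of purine breakdown, stood at 275, 133 and 188 in controls and 306 and 461 in PS (0.97, SE 0.26). None of these 3 overlapped between the groups, as the rule that named them required.

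Among the genes lower in PS, Cbln1, a synaptic organizer, stood at 762, 974 and 1013 in controls and 692 and 390.3 in PS (-0.81, SE 0.23). Syt5, a calcium sensor of vesicle release, stood at 4926, 5936 and 5244 in controls and 4450 and 3283 in PS (-0.49, SE 0.13). Kcnmb4, the neuronal beta subunit of the BK channel, stood at 411, 515 and 480.4 in controls and 367 and 239 in PS (-0.65, SE 0.19). In all 3 the lower value was that of PS-68. The lysosomal fucosidase Fuca1 stood at 1728, 2203 and 1979 in controls and 1378 and 1333 in PS (-0.53, SE 0.15). Agpat2, an enzyme of phospholipid synthesis, was at 125, 122.2 and 118 in controls and 63.3 and 60.6 in PS (-0.96, SE 0.29), with little spread within either group.

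Several non-coding transcripts were low in PS, and in them control-102 lay nearer to PS than to the other controls. Gm26582 (ENSMUSG00000097479.1, chromosome 5, 92043064 to 92055960, plus strand on GRCm38) stood at 143, 511 and 739 in control-102, control-104 and control-114 and 126 and 77.9 in PS (-1.92, SE 0.56, DESeq2 adjusted p 0.096). Gm26723 stood at 39.6, 313 and 412 in controls and 30.2 and 22.7 in PS (-2.68, SE 0.82, DESeq2 adjusted p 0.0914). Gm26762 stood at 65.4, 731 and 446 in controls and 68.2 and 44.3 in PS (-2.32, SE 0.75, DESeq2 adjusted p 0.0914). In each of these control-102 was within or close to the PS range. 1810014B01Rik, annotated as a transcribed pseudogene, stood at 223, 524 and 517 in controls and 154 and 147 in PS. Without control-102 all 4 passed the adjusted limma test, with adjusted p of 0.0787 for Gm26582, 0.0787 for Gm26723, 0.043 for Gm26762 and 0.089 for 1810014B01Rik, against 0.571 for each with all libraries and 0.88 without control-104. The AS saline libraries, from other stressed animals, stood at 198, 134 and 110 for Gm26582 and 52.9, 34.8 and 35.9 for Gm26723. No source used here gives the strand setting of the counting, which leaves transcripts that overlap other genes uncertain.

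**Figure D5:**
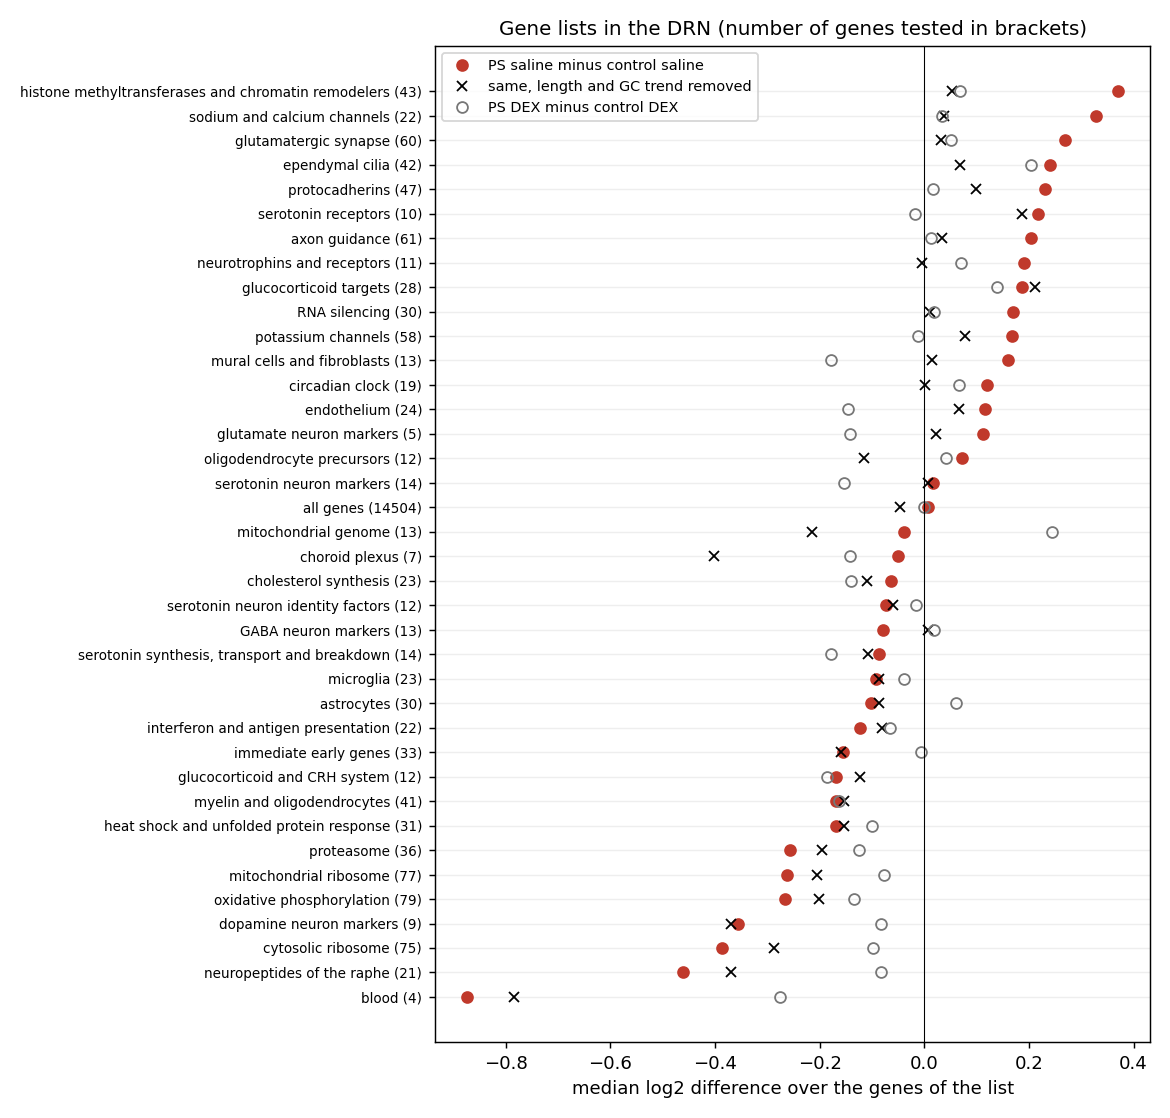
Median log2 difference of 37 gene lists and of all genes, for PS saline minus control saline (red), the same with the length and GC trend removed (crosses) and PS DEX minus control DEX (open circles), with the number of genes tested in brackets. The list of Chat, Slc5a7, Slc18a3 and Prph is left out for its scale. Removing the trend lowered the chromatin, channel and synapse lists to between 0.03 and 0.08. The glucocorticoid targets went from 0.19 to 0.21, the immediate early genes from -0.15 to -0.16 and all genes from 0.01 to -0.05.

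The same phenotypes were compared in other animals under DEX. There limma called no gene between PS DEX and control DEX (0 of 14504, 0%), and 107 genes were higher (0.738%) and 71 lower (0.49%) at an unadjusted p under 0.05, fewer than under saline. edgeR and DESeq2 called 0 there as well. Averaged over both treatments, PS against control called 0 genes (0%) by limma and edgeR and 2 by DESeq2, with 940 at an unadjusted p under 0.05. Of the 675 genes higher in PS saline at an unadjusted p under 0.05, 69.9% were higher under DEX too, and of the 437 lower ones 72.8% were lower, while 64.8% of all genes had the same sign under both treatments. Whether the PS difference depended on treatment was tested by the interaction, which called 0 genes (0%) and had 304 at an unadjusted p under 0.05. edgeR and DESeq2 called 0.

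Junb stood at 390.4, 475 and 356 in control DEX and 441, 322 and 487 in PS DEX, a log2 difference of 0.02 (SE 0.23), and its interaction was 1.13 (unadjusted p 0.0049, limma adjusted p 1). Fos stood at 204, 296 and 192 in control DEX and 140.3, 139 and 228 in PS DEX (-0.46, SE 0.28), overlapping. Npas4 stood at 288, 184 and 269.9 in control DEX and 346, 305 and 545 in PS DEX (0.67, SE 0.41), with every PS DEX library above every control DEX library, as under saline. The glucocorticoid targets had a median of 0.14 under DEX and 0.19 under saline, and Pla2g3 stood at 812, 605 and 673 in control DEX and 911, 799.7 and 878 in PS DEX (0.32, SE 0.15). The cytosolic ribosome had a median of -0.10 under DEX, the neuropeptides -0.08 and the chromatin genes 0.07. Other lists did not repeat their saline result. The immediate early genes had a median of -0.0063 under DEX, 16 higher and 17 lower, against -0.15 under saline. Serotonin receptors had -0.02 under DEX against 0.22, endothelial markers -0.15 against 0.12 and astrocyte markers 0.06 against -0.10.

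The AS saline libraries are only set beside these values, since a comparison of AS with control would share the 3 control saline libraries. Junb stood there at 359, 235 and 326 and Fos at 165, 96.1 and 211, and in both genes every AS library was also below every control. Pla2g3 stood at 209, 211 and 254 and Zbtb16 at 803, 622 and 793, with 1 AS library of Pla2g3 and none of Zbtb16 above the highest control. As a list, however, the glucocorticoid targets had a median deviation from the control mean of 0.12, 0.16 and 0.08 in AS saline. Each of these lay above every control library, between -0.02 and 0.03, so the higher list level was not particular to PS.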

How the data were processed

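RNA-seq was performed on DRN punches of 16 mice, and group and mouse number were taken from the GEO labels. Per the methods of the study, the authors trimmed reads with fastp (0.20.1), aligned them to GRCm38 with HISAT2 (2.2.1) and counted GENCODE genes with featureCounts (Subread 2.0). The authors deposited normalized counts, gene read counts divided by 1 DESeq2 (1.36.0) size factor per library, a depth-scaled signal. The library kit keeps strand, but a strand setting of the counting is not given in the sources used here. The 3 deposited comparison tables, with log2 fold changes, p-values and adjusted p-values, were not used. Whole reads were recovered as multiples of the step of each library (100% of values within 0.01 of a whole number).

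Values were analysed as log2(normalized count + 1) with limma (3.58.1, eBayes with trend) and 1 mean for each of the 6 groups, all 16 libraries sharing the spread (10 residual degrees of freedom and 3.88 from the prior). Genes were called at a Benjamini-Hochberg adjusted p under 0.1. edgeR (4.0.16) and DESeq2 (1.42.0) were run on the recovered reads as alternatives, beside other pseudocounts, filters, scalings, library weights, subsets of libraries, removal of a loess trend on transcript length and GC content, and leaving out each library. The fit was tested on simulated data. Controls were housed alone and defeated mice beside an aggressor behind a partition, so housing differed with the group and cannot be told apart from it. Nothing says which mice had shared an earlier cage or a day, so p-values measure the spread between these libraries.

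Named genes were the 12 with the smallest p in each direction among genes without overlap and with a mean of at least 50, up to 4 of each list by p, every gene called, and a fixed set; some of them are not reported here. Comparison, lists and alternatives were chosen with earlier results of these data known. Promoter windows came from RefSeq (GRCm38.p6). Ranges of depth cover counting error only.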

Additional observations from a re-analysis of the deposited data

Results flagged for a closer look

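Of the 187 genes picked by the naming rule, 4 had every PS library on one side of every control under saline and on the opposite side under DEX. Only these genes were searched, many of them picked by their saline values, and the share over all genes was not counted. The unadjusted interaction p-values below belong to genes picked for opposite signs in these same data. None passed the adjusted test of the interaction (PS difference under DEX minus that under saline, limma with Benjamini-Hochberg adjustment). Xdh, of purine breakdown, had a log2 difference of 0.97 under saline and -0.23 under DEX, with an interaction of -1.21 (unadjusted p 0.00437, adjusted p 1), and stood at 867, 722 and 706 in control DEX and 641, 609.5 and 697 in PS DEX. Zfp729a, a zinc finger gene of a family with close copies whose reads may be split, stood at 663, 629 and 572 in control saline and 866 and 829 in PS saline. Its log2 difference was 0.45 under saline and -0.13 under DEX, with an interaction of -0.58 (unadjusted p 0.0017, adjusted p 1). The somatostatin precursor Sst had -1.23 under saline and 0.51 under DEX, with an interaction of 1.75 (unadjusted p 0.0152, adjusted p 1), and its saline value was -0.27 without PS-68. C1ql1 had -0.44 under saline and 0.41 under DEX, with an interaction of 0.85 (unadjusted p 0.00339, adjusted p 1), and stood at 415, 390.3 and 394 in control DEX and 549, 631 and 431 in PS DEX.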

How the results depend on the processing

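No paired analysis was possible because the labels number mice differently in each group. For PS saline against control saline 4 genes were called by DESeq2 and between 0 and 15 when 1 library was left out, 15 without control-102 and 8 without PS-62, and 0 under each other alternative. For PS against control averaged over both treatments DESeq2 called 2 genes and leaving out 1 library gave between 0 and 2 (2 without control-102, 1 without PS-62). For the interaction leaving out 1 library gave between 0 and 1 (1 without PS-62), and for PS DEX against control DEX every alternative gave 0. The cause was not tested. Genes higher and lower in PS saline at an unadjusted p under 0.05, 675 and 437, were 569 and 562 after quantile normalization, 356 and 568 with the length and GC trend removed, 449 and 280 with only the groups compared and 252 and 156 with only saline libraries. They were 1622 and 996 without control-102, 185 and 170 without control-104, 835 and 476 without control-114, 267 and 355 without PS-62 and 177 and 148 without PS-68. These counts were added after seeing the data. When 1 library was left out, the log2 difference ran from -1.62 to 0.0029 for Slc6a3 and from -1.72 to 0.047 for Prph (the last of each without PS-68) and from -0.55 to 0.0089 for Mbp (the last without PS-62). Of 1653 log2 differences of the 92 genes named in the text under the alternatives, 1632 were counted as kept. Kept meant the same side of the threshold and the same direction or, where the value was within 1 SE of 0, a move of less than 1 SE. No gene was called in the main fit, so the same side meant staying uncalled, and a change in size alone did not count. The smaller difference of Cck without PS-68 was thus counted as kept, and the count is no measure of stability. The median of 11 of the 38 lists changed sign under at least 1 alternative, 10 of them when a library was left out. With 2 PS libraries, a leave-one-out fit assumes that the lone library varies like the other groups.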
